A study of Mus musculus with 6 samples.

Results

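Synovial fibroblast identity genes, 10 in number, were followed on every array of a time course of arthritis induced in mice by collagen, a model of the human rheumatoid disease. The genes were taken by symbol, with every probe of each, which gave 13 probes of 10 genes among 25697 probes of 16593 named genes. The samples were synovial tissue from the ankle joints of male DBA/1 mice immunized at 6 to 8 weeks of age with 100 µg of type II collagen from cattle, given in complete Freund's adjuvant, and boosted in a footpad with incomplete adjuvant; the boosted foot was left out. The 3 groups were measured on Illumina bead arrays, at week 6 (induction), week 9 (peak) and week 15 (resolution) after immunization, with 2 arrays each. All groups were immunized, and no untreated mice were analysed here. RNA came from pooled tissue. Whether the arrays of a week were made from separate pools is not stated in the labels, so the p-values cover the spread among these arrays alone, and that spread may be technical.

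The synovium has a thin lining next to the joint space and a looser sublining beneath it, and both hold fibroblasts. Lining fibroblasts make hyaluronan and lubricin for the joint fluid and carry the complement regulator CD55, while sublining fibroblasts around vessels carry THY1 and CD248. In arthritis both compartments expand, and fibroblasts there produce cytokines and matrix-degrading enzymes. Cd55, Ugdh and Has2 were taken here as lining genes, Thy1 and Cd248 as sublining genes, and Pdgfra, Fap, Pdpn and Cdh11 as genes that both kinds of fibroblast share. Angptl7 was assigned to none of them. Several of these genes are not restricted to fibroblasts: in mice Thy1 is also a surface protein of T cells, Pdpn also marks lymphatic endothelium, and Cd55 is found on many cell types.

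Signals of 7 of the 10 genes lay above background on at least 2 arrays and were tested, each through 1 probe. Cdh11, Fap and Ugdh were not. The label of the set is thus met in part, since Fap, Cdh11 and the general fibroblast gene Pdgfrb were not well above background, while Pdgfra and the fibroblast proteoglycan gene Dcn were detected on all 6 arrays. Lymphocyte genes gave strong signals in every sample, with all 10 tested T cell markers detected on all 6 arrays. The second week 15 array was dimmer than the rest, with a median intensity of 99.07 against 123.1 to 129.5 on the other 5. The first week 15 array stood apart in skeletal muscle markers, whose 4 tested genes summed to a linear signal of 5423 there, against 266 on the second week 15 array and 381 to 418 on the arrays of week 6 and week 9. The arrays of week 15 also differed more from each other, with an SD of the log2 differences across genes of 0.510, against 0.299 at week 6 and 0.303 at week 9.

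**Figure D1:**
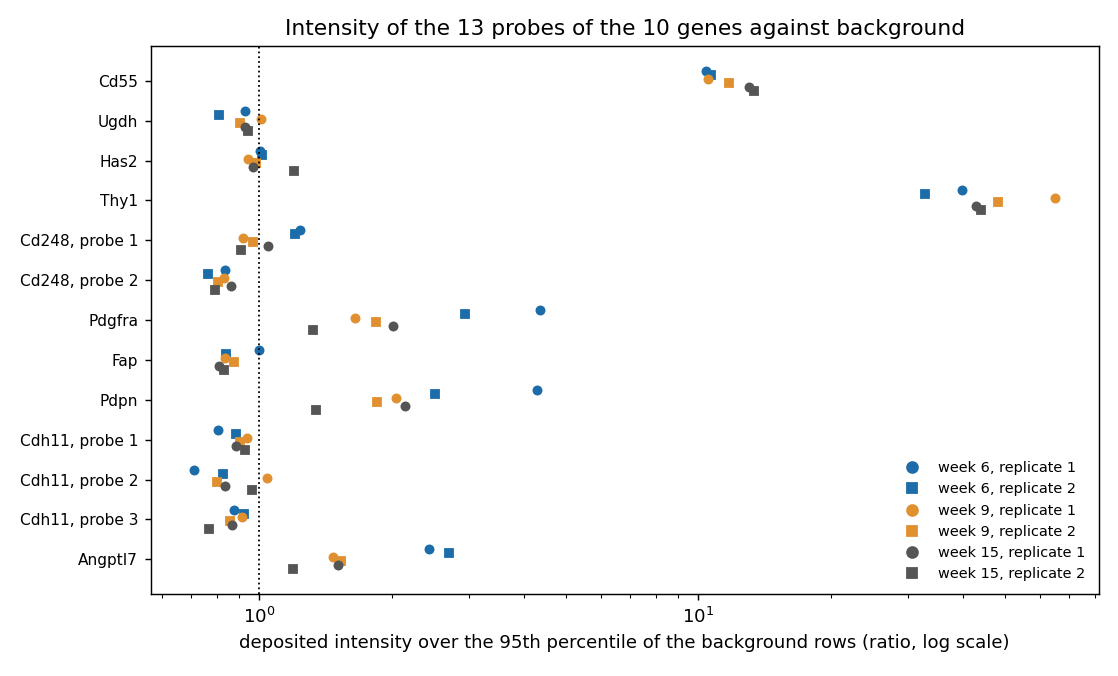
Deposited intensity of each of the 13 probes on each of the 6 arrays, divided by the 95th percentile of the background rows of that array (x axis, ratio on a log scale), with weeks by colour and replicates by shape. Cd55, Thy1, Pdgfra, Pdpn and Angptl7 lie to the right of the dotted line at 1 on all 6 arrays, and the probes of Cdh11, Fap and Ugdh lie near or left of it.

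Pdgfra, Pdpn, Angptl7 and Cd248 all had their highest signals on the week 6 arrays and lower ones at both later weeks. The log2 changes of Pdgfra, Pdpn and Angptl7 ran from -1.54 to -1.13 at week 9 against week 6, and from -1.61 to -1.35 at week 15 against week 6. Cd248 was at background on both week 9 arrays and on 1 week 15 array, so its change has only a bound at week 9, at least 1.62-fold lower than at week 6. Cd55 and Thy1 did not share this pattern: Thy1 was lowest at week 6 and Cd55 was highest at week 15. None of the 7 genes passed the threshold of an adjusted p of 0.05 in any of the 3 comparisons (limma with Benjamini-Hochberg adjustment over 10167 features), so every difference given for them is a measured value that did not pass the test. On the authors' deposited log2 values the changes at week 9 against week 6 were smaller. They were -0.85 for Pdgfra, -0.64 for Pdpn, -0.57 for Angptl7 and -0.23 for Cd248. The bound for Cd248 therefore belongs to the values as normalized here. In these bulk samples, fewer cells of a type and less RNA per cell cannot be told apart.

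Pdgfra encodes the alpha receptor for platelet-derived growth factor, a general marker of connective tissue fibroblasts. Its log2 signals were 8.75 and 8.13 at week 6, 6.76 and 7.04 at week 9, and 7.35 and 6.30 at week 15. Both week 6 arrays lay above all 4 later arrays, and the week 9 pair lay inside the range of the week 15 pair. The mean was 6.90 ± 0.20 at week 9 and 8.44 ± 0.44 at week 6 (SD, n = 2 each), a log2 change of -1.54 ± 0.37 (SE; limma adjusted p = 0.152). At week 15 the mean was 6.83 ± 0.74 (SD, n = 2), a change of -1.61 from week 6 (limma adjusted p = 0.177) and of -0.08 from week 9, the change from week 9 having a 95% interval from -0.94 to 0.79.

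Pdpn encodes podoplanin, a membrane glycoprotein of synovial fibroblasts that binds the platelet receptor CLEC-2 (gene Clec1b). Its log2 signals were 8.72 and 7.82 at week 6, 7.23 and 7.05 at week 9, and 7.49 and 6.36 at week 15. The week 6 arrays again lay above the other 4, though they differed from each other by more than the lower of them did from the first week 15 array. The change was -1.13 ± 0.42 (SE) at week 9 against week 6 (limma adjusted p = 0.272) and -1.35 ± 0.42 (SE) at week 15 against week 6 (limma adjusted p = 0.242). Without the first week 6 array the week 9 change was -0.69, and without the second it was -1.59.

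Angptl7 encodes a secreted protein of the angiopoietin-like family, known from the cornea and the outflow tissue of the eye. Its log2 signals were 7.59 and 7.97 at week 6, 6.48 and 6.62 at week 9, and 6.60 and 5.91 at week 15. The week 6 pair did not overlap with either later week. The change of -1.24 ± 0.26 (SE) at week 9 against week 6 (limma adjusted p = 0.122) and that of -1.53 ± 0.26 (SE) at week 15 against week 6 (limma adjusted p = 0.105) had the smallest unadjusted p of the 7 genes in those comparisons. The 95% intervals ran from -1.85 to -0.62 and from -2.14 to -0.91. Its moderated F test over the 3 weeks gave a limma adjusted p of 0.0769, the lowest of the members, of which 0 of 7 passed that test, against 0.620% of all features.

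The upstream sequences of Pdpn and Angptl7 are shown because both genes lay lower after week 6 and because their listed start is the outer end of the annotated gene, so the window lies before every annotated transcript. The promoter table held 5 of the 10 genes. Each line gives the 250 bases before the start, 5′ to 3′ on the strand of the gene, from RefSeq (build GRCm38.p6), on the minus strand at chr4:143299565-143299814 for Pdpn and chr4:148500463-148500712 for Angptl7.
Pdpn: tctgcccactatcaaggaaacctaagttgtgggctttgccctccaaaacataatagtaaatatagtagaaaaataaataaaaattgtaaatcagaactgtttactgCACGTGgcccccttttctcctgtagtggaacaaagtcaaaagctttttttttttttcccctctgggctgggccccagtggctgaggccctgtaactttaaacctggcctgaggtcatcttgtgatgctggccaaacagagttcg
Angptl7: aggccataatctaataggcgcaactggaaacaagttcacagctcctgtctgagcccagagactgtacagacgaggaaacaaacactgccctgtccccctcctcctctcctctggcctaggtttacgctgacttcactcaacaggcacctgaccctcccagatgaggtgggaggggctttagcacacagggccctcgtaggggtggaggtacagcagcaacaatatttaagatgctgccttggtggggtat
Capitals mark letters found among 5 searched motifs, on either strand. The AP-1 site was spelled TGANTCA, the GC-rich site of Sp1 was spelled GGGCGG, the core promoter element was spelled TATAAA, the site of factor NF-Y was spelled CCAAT and the E-box was spelled CACGTG, with no overlap between motifs found. The E-box letters occur once, before Pdpn, and in 6.04% of all 32536 windows of this length. None of the other 4 is in either window, and they occur in 6.73%, 33.0%, 12.3% and 33.8% of all windows, in the order named.

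Cd248 encodes endosialin, a membrane protein of sublining and perivascular fibroblasts. On its brighter probe the log2 signals were 5.78 and 5.83 at week 6, 4.77 and 4.98 at week 9, and 5.27 and 4.61 at week 15. The week 6 pair lay above all later arrays, and both week 9 arrays were at background level. On these values the gene was at least 1.62-fold lower at week 9 than at week 6. The limma adjusted p of 0.176 belongs to the fitted log2 change of -0.93, not to that bound. The log2 change was -0.32 with no background correction and -0.23 on the authors' deposited values. At week 15, where 1 of 2 arrays was above background, the change from week 6 was -0.86 ± 0.24 (SE, limma adjusted p = 0.221). Cd248 entered the test only with its week 6 signals, since 1 later array alone would not have met the filter of 2 arrays. Its other probe was not above background on any array and stayed between 4.35 and 4.56, so the pattern rests on 1 of 2 probes.

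Thy1 encodes a small surface glycoprotein that is anchored to the membrane by a lipid. Its log2 signals were 12.24 and 12.09 at week 6, 12.74 and 12.31 at week 9, and 12.37 and 12.67 at week 15. Both later weeks lay above the week 6 pair and overlapped with each other. The change was 0.36 ± 0.21 (SE) at week 9 against week 6 (limma adjusted p = 0.431, 95% interval -0.13 to 0.86) and 0.35 ± 0.21 (SE) at week 15 against week 6 (limma adjusted p = 0.477). T cell markers were measured beside it. The 10 tested had a median log2 change of 0.31 at week 9 against week 6, with 3 of 10 negative, and none passed the test. Cd3e, a chain of the T cell receptor complex, had one of 0.73 (limma adjusted p = 0.224) and Cd3d one of 0.29 (limma adjusted p = 0.444). The chains Cd3g and Cd247 had 0.51 and -0.37 (limma adjusted p = 0.231 and 0.478). The summed linear signal of the 10 tested T cell markers was 37303 and 29628 at week 9, against 25771 and 27184 at week 6. The part of T cells in the Thy1 signal was not tested.

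Among the lining genes, Cd55 encodes decay-accelerating factor, which breaks up complement convertases on the cell surface. Its log2 signals were 10.18 and 10.36 at week 6, 10.004 and 10.23 at week 9, and 10.63 and 10.92 at week 15. The week 15 pair lay above all 4 earlier arrays, while the week 6 and week 9 pairs overlapped. The change was 0.66 ± 0.19 (SE) at week 15 against week 9 (limma adjusted p = 0.117, 95% interval 0.21 to 1.10) and 0.50 ± 0.19 (SE) at week 15 against week 6 (limma adjusted p = 0.300). At week 9 against week 6 it was -0.15, with an interval from -0.59 to 0.29. Its close paralog Cd55b was above background on only 1 array and was not tested. Adgre5, which encodes CD97, a receptor that binds CD55, had a log2 change of 0.37 at week 9 against week 6 (limma adjusted p = 0.382).

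Has2 encodes a hyaluronan synthase. Its log2 signals were 5.02 and 5.12 at week 6, 4.85 and 5.04 at week 9, and 4.91 and 5.94 at week 15. Only the second week 15 array stood clear of the other 5, although both week 6 arrays also passed the detection limit narrowly. The fitted log2 change was 0.48 at week 15 against week 9 (limma adjusted p = 0.383). It gives no bound on the fold, since both week 9 arrays and the first week 15 array were at background for Has2. Without the second week 15 array the log2 change was -0.03 at week 15 against week 9 and -0.16 at week 15 against week 6. Both positive values, 0.48 and 0.35, thus rest on that second array.

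The other 3 members gave no usable level. Ugdh, which makes the UDP-glucuronate used for hyaluronan, had deposited intensities from 93.0 to 125.9 and was above background on 1 array, the first of week 9. Fap, a serine protease of activated fibroblasts, had intensities from 81.8 to 128.3 and was above background on none. Cdh11, the cadherin that joins fibroblasts in the lining, had 3 probes with intensities from 75.5 to 129.8, and 1 of them was above background on 1 array. Log2 signals of these 5 probes lay between 4.29 and 5.26 on all arrays. Without the filter on dim probes their limma adjusted p ran from 0.506 to 0.992 over the 3 comparisons, and levels this close to background do not show whether the genes changed.

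**Figure D2:**
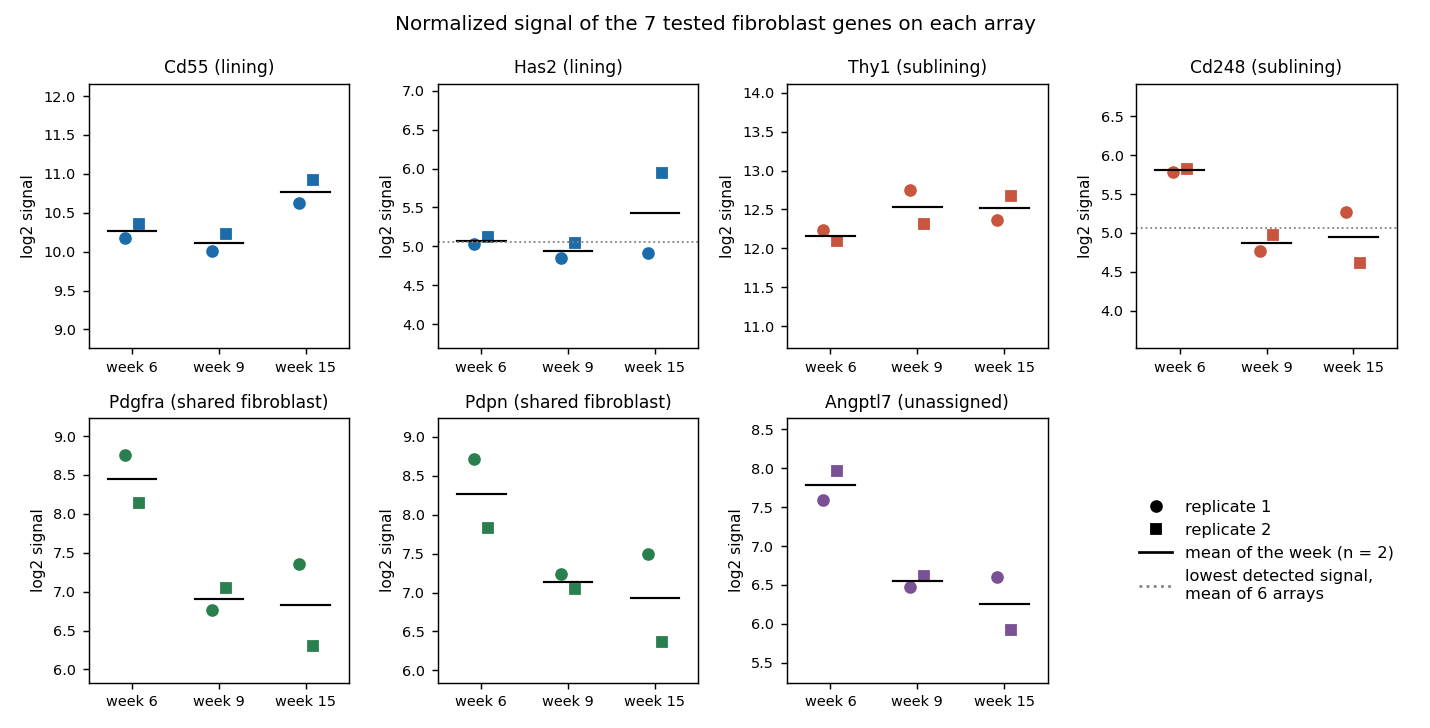
Normalized log2 signal (y axis, with the same span in each panel) of the 7 tested genes at weeks 6, 9 and 15, with 1 point per array and a bar at the mean of each week (n = 2). Pdgfra, Pdpn, Angptl7 and Cd248 are highest on both week 6 arrays, Cd55 on both week 15 arrays, and Has2 on the second week 15 array alone; the dotted line is the mean over arrays of the lowest detected signal.

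Week 9 was set against week 6 to ask what separated the peak of arthritis from its induction. Of the 7 tested members 0 passed, against 0.354% of all features (36 of 10167). At an unadjusted p under 0.05, 4 members were lower and 0 higher, against 8.59% and 7.43% of all features. The week 9 pair lay wholly below the week 6 pair for 4 members and wholly above it for 1, against 25.6% and 32.6% of all features. Cd248 is among the lower members in both counts and met the detection limit only with its week 6 signals, where it is high. The members were chosen with earlier results of these data known, so these counts only describe them. The members' median log2 change was -0.93, which is the fitted value of Cd248 and is taken against background, and that of all features was 0.04, with the 5th percentile of features at -0.70 and the 95th at 0.55. Cd248, Pdgfra, Pdpn and Angptl7 were below that range and Cd55, Has2 and Thy1 inside it. Cd248 and Angptl7 passed when the spread was estimated from the 4 arrays of those weeks alone (limma adjusted p = 0.0461 and 0.0445), or without either week 15 array (limma adjusted p from 0.0454 to 0.0492). Of the arrays of these weeks, Cd248 was above background on the week 6 pair alone, the pair where it is high, so its passing there is no separate support.

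Week 15 was set against week 9 to ask what separated resolution from the peak. Here 0 of 7 members passed, against 1.19% of all features. Only Cd55 had an unadjusted p under 0.05, and it was higher, as were 10.3% of all features at that level. Its week 15 pair lay wholly above the week 9 pair, as in 22.7% of features, and no member lay wholly below (32.2% of features). The median log2 change of the members was -0.01 and that of all features -0.08. Pdgfra, Pdpn and Angptl7 had changes from -0.29 to -0.08, with 95% intervals that reach from -1.20 to 0.79. Without the first week 15 array, which carried the muscle signal, Cd55 was higher by 0.80 and Has2, at background at week 9, by 0.995. The week then holds 1 array, which is assumed to vary like the others.

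The comparison of week 15 with week 6 set resolution against induction. It shares its week 6 arrays with the first comparison and its week 15 arrays with the second, so the changes are not separate evidence. Again 0 of 7 members passed, against 0.0492% of all features (5 of 10167). At an unadjusted p under 0.05, 4 members were lower and 1 higher, against 8.52% and 5.90% of features. The week 15 pair lay wholly below the week 6 pair for 4 and wholly above it for 2, Cd55 and Thy1, against 24.3% and 19.7% of features. Cd248 is again among the lower members in both counts, and these counts too only describe the chosen members. Without the first week 15 array the changes were -2.15 for Pdgfra, -1.93 for Pdpn, and -1.88 for Angptl7. Has2 stood at 0.87 and Cd248, at background on the array that remained, at -1.19. Week 15 then holds 1 array, the dimmer one and the only one where Has2 stood clear, so these are given as sizes alone. Without the second week 15 array the same changes were -1.10 for Pdgfra, -0.78 for Pdpn and -1.20 for Angptl7, and Cd248 stood at -0.55. With a normal-exponential correction from all probes and an offset of 50, Angptl7 alone passed, at -1.04 (limma adjusted p = 0.0488).

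**Figure D3:**
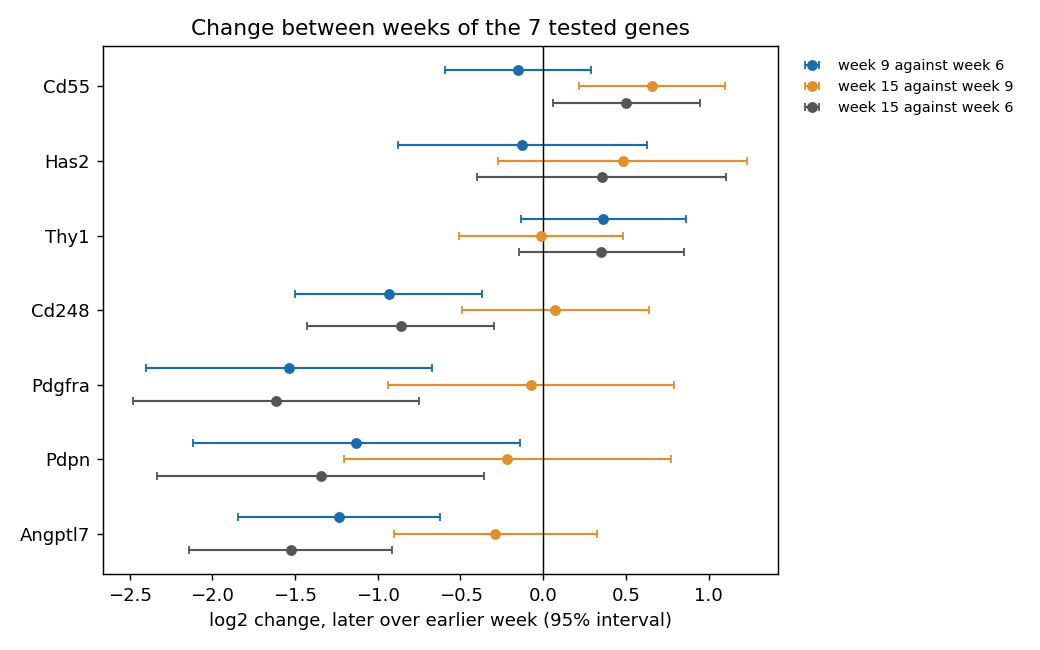
Log2 change of the 7 tested genes (rows) in the 3 comparisons (colours), as the value of the later week minus that of the earlier, with bars for the 95% interval from limma. For Pdgfra, Pdpn, Angptl7 and Cd248 the intervals of both comparisons with week 6 lie below 0, and no gene passed the adjusted threshold.

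Set by compartment, the lining gene Cd55 had log2 changes of -0.15 at week 9 and 0.50 at week 15, both against week 6. Has2, the other tested lining gene, was at background on both week 9 arrays and on 1 week 15 array, so it gives no measured change for that compartment. Of the sublining genes, Thy1 had changes of 0.36 and 0.35 in those comparisons. On the values normalized here, Cd248 was at least 1.62-fold lower at week 9 than at week 6 without passing the test. Their fitted median of -0.28 at week 9 against week 6 thus describes neither gene, and it was 0.022 with no background correction and 0.072 on the authors' deposited values. The shared genes Pdgfra and Pdpn had a median of -1.33 at week 9 and of -1.48 at week 15, both against week 6. With Has2 and Cd248 near background, a contrast of lining and sublining would rest on Cd55 and Thy1. Neither is restricted to fibroblasts, so their values do not give a contrast of the compartments. The marker Prg4, which encodes lubricin, has no probe named here.

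Other genes of the lining and sublining gave values beside these. Of 7 tested lining genes outside the set, 1 passed at week 9 against week 6: Vcam1, an adhesion molecule of lining fibroblasts and vessels, fell by 1.47 on the log2 scale (limma adjusted p = 0.0483). The median of the 7 was -0.55, with 6 negative, and 0 passed in the other comparisons. Hbegf, a growth factor of the EGF family, had a change of -0.57 at week 15 against week 6 (limma adjusted p = 0.242). Of 10 tested sublining genes outside the set, 0 passed in any comparison. Their median was -0.65 at week 9, with 7 of 10 negative, and -0.78 at week 15, with 8 of 10 negative, both against week 6. Apoe, a lipid carrier, had a change of -1.43 at week 15 against week 6 (limma adjusted p = 0.0605) and Pi16, a marker of adventitial fibroblasts, one of -0.92 (limma adjusted p = 0.122).

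General fibroblast genes, which include collagens and matrix proteins, had 17 tested members and a median log2 change of -0.68 at week 9 against week 6, with 16 negative. At week 15 against week 6 the median was -1.09, with 15 negative and 0 past the threshold in any comparison. Col6a1, a collagen VI chain, had a change of -1.59 at week 15 against week 6 (limma adjusted p = 0.0809), and Mmp2, a gelatinase, had one of -1.38 (limma adjusted p = 0.0809). The summed linear signal of the 17 genes was 6232 and 7292 at week 9, against 13675 and 10771 at week 6, so the week 6 arrays were the higher pair here as well. Bright genes weigh most in that sum, above all Dcn, with log2 signals of 12.82 and 12.44 at week 6 and 11.51 and 11.77 at week 9.

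Hyaluronan genes were covered in part, since the synthase genes Has1 and Has3 were above background on no array. Of the 9 tested, 8 were negative at week 9 against week 6, with a median of -0.36 and 0 past the threshold in any comparison. Hyal1, a hyaluronidase that was above background on the week 6 pair alone, was at least 1.08-fold lower at week 9 than at week 6 (limma adjusted p = 0.180), and Stab1, a scavenger receptor, at least 1.72-fold lower (limma adjusted p = 0.180). The enzymes that supply the sugar precursors had 6 tested genes with a median of -0.02 at week 9 against week 6, and 0 passed in any comparison. Ugp2, the enzyme that precedes Ugdh, had a change of -0.07 (limma adjusted p = 0.874), and Gfpt2, which starts the hexosamine route, had one of -0.81 at week 15 against week 9 (limma adjusted p = 0.107).

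Genes whose proteins bind the members had 13 tested of 20 on the array, with a median of -0.13 at week 9 against week 6 and 0 past the threshold in any comparison. Pdgfa, a ligand of the Pdgfra product, had a change of -0.85 at week 9 against week 6 (limma adjusted p = 0.238). Ctnnb1, whose product beta-catenin binds the tail of cadherins such as cadherin-11, had log2 signals of 10.95 and 10.95 at week 6, 10.50 and 10.50 at week 9, and 11.03 and 11.24 at week 15, with a change of 0.63 at week 15 against week 9 (limma adjusted p = 0.104). Clec1b, the receptor for podoplanin, was above background on no array.

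Markers of other cell types were measured beside the members, and the values in this paragraph are log2 changes at week 9 against week 6 unless a level is named. Blood endothelial markers, with 9 tested, had a median log2 change of -1.04 at week 9 against week 6 and a summed linear signal of 1782 and 1951 at week 9, against 4478 and 2603 at week 6. Of the 9, 7 were negative, with Ramp2 at -1.66 and Plvap at -1.41, while Pecam1 stood at 0.11 and Kdr at 0.20. Macrophage markers, with 6 tested, had a median of -0.74, with Mrc1 at -1.0003 and Adgre1 at -0.84. Pericyte and smooth muscle markers, with 7 tested, had a median of -0.80, with Mcam at -1.27 and Rgs5 at -1.23. No gene of these 3 lists passed. Adipocyte markers, with 8 tested, had a median of -1.56, and 2 passed, Adipoq and Cidea, the first at -2.72 (limma adjusted p = 0.0262) and the other at least 2.32-fold lower (limma adjusted p = 0.0350). Cidea and Cidec, the latter at least 2.22-fold lower, were above background on the week 6 pair alone and met the detection limit through it. The list median lies between the fitted values of these genes, which are taken against background at week 9, so it is not a measured size. Lymphatic endothelial markers, with 3 tested, stood at -0.93, and Lyve1, one of them and listed beside Pdpn, had a change of -0.82 (limma adjusted p = 0.212), as Reln had one of -0.99. Lymph node stromal genes had a median of -0.55 over 7 tested, with Cxcl13 at -1.19 (limma adjusted p = 0.0520) and Il7 at -0.75. B cell markers stood at -0.04, with 7 tested, Cd22 at -0.46 and Pax5 at -0.04. Nerve markers had a median of 0.28 over 3 tested, with Pmp22 at -0.78 and Mbp at 0.39, and keratinocyte markers one of 0.28 over 2 tested, Trp63 at 0.57 and Krt10 at -0.01. Skeletal muscle markers stood at 0.14, and the first week 15 array alone was high, with a log2 signal of Atp2a1 of 11.78 there and 5.58 on the second, against 6.13 and 5.95 at week 9. Actn3, at 8.597 and 4.76 on the week 15 arrays, was at background on the second of them and on both week 9 arrays. Acta1 was above background on 1 array and was not tested. Tendon, cartilage and bone markers had 3 tested genes in all, Tnmd, Fmod and Col2a1, none of them detected on all 6 arrays. In these lists no gene other than Adipoq and Cidea passed at week 9 against week 6. The part of these cell types in the members' signals was not tested.

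**Figure D4:**
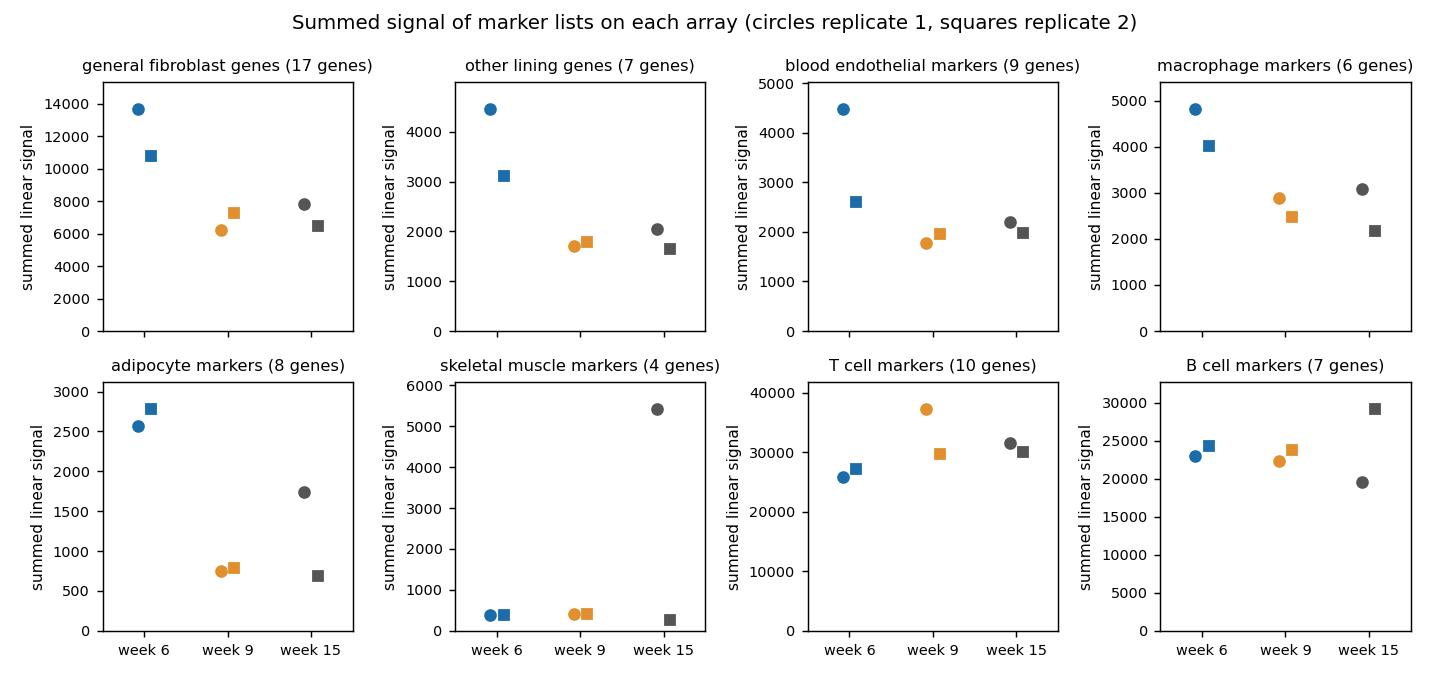
Summed linear signal of the tested genes of 8 marker lists (y axis, from 0) on each array at weeks 6, 9 and 15, with circles for replicate 1 and squares for replicate 2. Bright genes weigh most in a sum, as Dcn does among the general fibroblast genes. The sums of general fibroblast genes, of the lining genes outside the set, and of endothelial, macrophage and adipocyte markers are highest on the 2 week 6 arrays, T cell sums are lowest there, and muscle signal is high on the first week 15 array alone.

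Across the 6 arrays the members' signals can be described by their correlations, although arrays of a week share that week, so the points are not independent. Pearson's r of log2 signals between pairs of Pdgfra, Pdpn, Cd248 and Angptl7 ran from 0.838 to 0.965. Thy1 had r from -0.887 to -0.649 with these 4, and Cd55 had r from -0.528 to -0.270 with them and 0.783 with Has2. Among 6716 named genes with a mean log2 signal above 6, those closest to Pdgfra were Ramp2 at 0.998 and Plvap at 0.997, both genes of endothelial cells. Closest to Pdpn were Glycam1 at 0.996, an adhesion ligand of high endothelial venules in lymph nodes, and the endothelial gene Esam at 0.995. Closest to Cd248 were Aoc3 at 0.994 and Errfi1 at 0.991, and closest to Angptl7 were Zbtb2 at 0.995 and Lsm8 at 0.992. Cd55 was closest to Ccnc at 0.997 and Lipo3 at 0.995, Thy1 to Kmo at 0.985 and Nup155 at 0.962, and Has2 to Seh1l at 0.997 and Ift52 at 0.996. With so many genes and 6 arrays in 3 weeks, high values arise between many pairs.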

How the data were processed

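Per the file headers, the authors deposited a linear intensity for each probe of each array and gave no detection p-values. How it was corrected or normalized is not stated in the labels. The authors' deposited log2 values of the same arrays, with a median of 6.73 on each, were an alternative, and their scaling is not stated in the labels. Each of their columns correlated best with its own array (Pearson's r across probes of at least 0.9958, against at most 0.9923 for any other). Another 2 sample columns of the intensity table could be matched to no label and stayed unused. Of its 26821 rows, 1124 carry no probe ID and were taken as control rows; 13 bright ones, over 5 median absolute deviations above the median of the log2 values, were left out, and 1111 served as background.

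Intensities were corrected with the normal-exponential model from these rows (offset 16), quantile-normalized and log2-transformed (neqc, limma 3.58.1, R 4.3.3). The detection p of a probe was computed as the fraction of background rows that reached its intensity, and probes with a value under 0.05 on at least 2 arrays were tested (13633). The brightest stood for its gene, giving 10167 features. All 6 arrays were fitted in 1 model of 3 week means (lmFit, eBayes; 3 residual and 4.02 prior degrees of freedom), two-sided, with Benjamini-Hochberg adjustment over all features and a threshold of 0.05. A fold written as at least N compares the brighter week's mean with, per array, the higher of the lowest detected signal and the gene's own. An adjusted p beside such a fold belongs to the fitted change, not to the bound. The number of arrays limits the precision.

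Symbols came from the platform's probe table, with 1 symbol for 23978 probes, several for 0 and none for 1719. All 10 symbols are in the RefSeq table. The members, their roles and the lists were chosen with earlier results of these data known. Named genes are all members, for each tested member the 2 features with the highest Pearson's r (1 symbol, mean log2 above 6), of each list every gene past the threshold and the 2 with the smallest p of the F test, and Vcam1, Prg4, Acta1, Adipoq, Cd3e, Cd3d and Lyve1. Adgre5, Clec1b, Cd55b, Has1, Has3, Dcn, Pdgfrb, Cidec, Pecam1 and Kdr fall outside that rule and were named after their values were seen. Alternatives were another background correction, scaling, dim-probe filter, probe rule or set of arrays, a replicate block and the authors' deposited values. In simulated data the fit recovered 32.6% of log2 changes of 1 and 79.1% of changes of 2, at week 9 against week 6. A gene that did not pass can thus still have changed.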

Additional observations from a re-analysis of the deposited data

How the results depend on the processing

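Over 15 other settings, 300 of 312 changes of members kept their direction. For part of them this was fixed beforehand. The dim-probe filters, the probe mean, the block and the fit on the compared weeks left the members' fitted changes as they were. Leaving out an array of the third week moved them little. Among fits on all 6 arrays only Angptl7 passed, at week 15 against week 6 with the offset of 50, where 44 features were called. Every other pass came from a fit on fewer arrays, some with 1 array left at week 15. The number of features called depended on the setting. At week 9 against week 6 it was 36, and 69 with no background correction, 90 with the normal-exponential correction from all probes (offset 50), 83 with scaling to the 75th percentile, 8 with the replicate block, 171 with only the 4 arrays compared, and 0 to 168 with 1 array left out. At week 15 against week 9 it was 121, and 354, 319, 329 with the authors' deposited values, 34 with the block, 3 with only those arrays, and 0 to 1991. At week 15 against week 6 it was 5, and 29, 44, 10, 15 with the authors' deposited values, 8 with the mean of a gene's probes, and 3 to 995. For any change it was 63, and 201, 207, 119, 95 with the authors' deposited values, 9 with the block, and 3 to 1636. With 1 array left out, the highest count of each comparison came without the first week 15 array, although at week 9 against week 6 leaving out the second gave 156.

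What arrays with the same replicate number have in common is not stated in the labels. Their deviations correlated at -0.04, 0.15 and -0.08, and the block called no member. The sublining median at week 9 against week 6 was -0.28, and 0.022, -0.031 and 0.072 with no background correction, the offset of 50 and the authors' deposited values. At week 15 against week 6 it was -0.25, and 0.021, -0.032 and 0.069 with those and -0.12 with the percentile scaling, and at week 15 against week 9 it was 0.03, and 0.15 with that scaling. The shared median was -1.33 at week 9 and -1.48 at week 15 against week 6, and -0.75 and -0.79 with the authors' deposited values and -0.65 and -0.83 with no filter on dim probes, which adds Fap and Cdh11 at background. With the percentile scaling Cd55 stood at 0.0023 at week 9 against week 6 and Pdgfra at 0.036 at week 15 against week 9. The cause of these shifts was not tested.

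With 1 array left out, at week 15 against week 9 the lining median ran from 0.24 to 0.90, the sublining from -0.063 to 0.13 and the shared from -0.70 to 0.41. At week 15 against week 6 they ran from 0.10 to 0.76, -0.35 to -0.17 and -2.04 to -0.94. Single genes at week 15 against week 9 ran from -0.032 to 0.995 for Has2, -0.23 to 0.20 for Thy1, -0.26 to 0.42 for Cd248, -0.60 to 0.45 for Pdgfra, -0.79 to 0.36 for Pdpn and -0.63 to 0.050 for Angptl7, and Has2 ran from -0.16 to 0.87 at week 15 against week 6. Signal over background limits Has2, Cd248, Ugdh, Fap and Cdh11.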
